A study of Mus musculus with 4 samples.

Results

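Immediate early genes are the first genes that cells transcribe after a stimulus, and 10 of them were followed here: the transcription factor genes Egr1, Egr2, Egr3, Fos, Jun, Junb and Atf3, the immediate early response genes Ier2 and Ier3, and the phosphatase gene Dusp1. They were chosen by name, with earlier results of these data known, so their counts below are a description and not an unselected sample. They are 10 of the 16358 genes that could be named on the arrays, with 12 probes between them. The comparison was made in mouse testis at postnatal day 7, between RNA immunoprecipitated through a FLAG tag (FLAG IP, 2 arrays) and RNA of the starting material (Input, 2 arrays). All 4 samples came from male mice with the transgene Tg-Nanos2 enhancer-3xFLAG-Nanos2-3'UTR, in which a Nanos2 enhancer drives the tagged gene, followed by the Nanos2 3′ untranslated region. Testis cells that do not use this enhancer are still present in Input, and no immunoprecipitate from mice without the tag was analysed here. The replicates are biological according to the series' design text, but the labels name no animals, so the p-values measure the spread between these samples only. A description field of the samples names a fetal gonad, whereas the titles and characteristics give postnatal day 7, which was used.

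NANOS2 binds RNA in male germ cells, recruits the CCR4-NOT deadenylase and maintains spermatogonial stem cells. Immediate early genes are switched on without new protein synthesis, mainly through the serum response factor SRF with its ternary complex partners downstream of ERK, and through CREB. Their mRNAs are short-lived, many because of AU-rich elements in the 3′ untranslated region, and many encode transcription factors or feedback inhibitors of the same kinases. In cultured mouse spermatogonial stem cells, GDNF, the niche factor that signals through RET and GFRA1, is known to induce Egr2 and Egr3.

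RNA was hybridised to single-colour Agilent mouse arrays. A level below is a probe's log2 signal less the 75th percentile of its array, a change is the FLAG IP mean minus the Input mean of these levels, and its error is the standard error of a limma fit (n = 2 arrays per group). The 75th percentile signal was 1019 and 1267 on the FLAG IP arrays, against 1475 and 1675 on the Input arrays, and all 4 arrays lay on 1 slide. The share of probes well above background was 66.3% to 68.4%, and the number of arrays limits the precision. Nanos2 itself stood at -1.94 and -2.44 in FLAG IP, against -3.87 and -3.66 in Input, a change of 1.58 ± 0.22 (limma adjusted p = 0.0108), with a probe not known to separate the transgene's RNA from endogenous Nanos2 RNA. A gene was called at an adjusted p under 0.05, with adjustment over all 27833 tested probes.

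Of the 10 genes, 5 were called higher in FLAG IP (Egr2, Ier3, Egr1, Dusp1 and Fos) and 1 was called lower (Atf3), while Jun, Junb and Ier2 did not pass the test and Egr3 could not be tested. Over all 13263 tested genes, 16.0% were called higher and 18.6% lower. The median change of the 9 tested genes was 1.37, against -0.12 over all tested genes. Each of the 9 was well above background on all 4 arrays, so none entered the test through FLAG IP alone. The genes did not move as 1 block: their changes lay between 2.84 for Egr2 and -0.52 for Atf3.

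**Figure D1:**
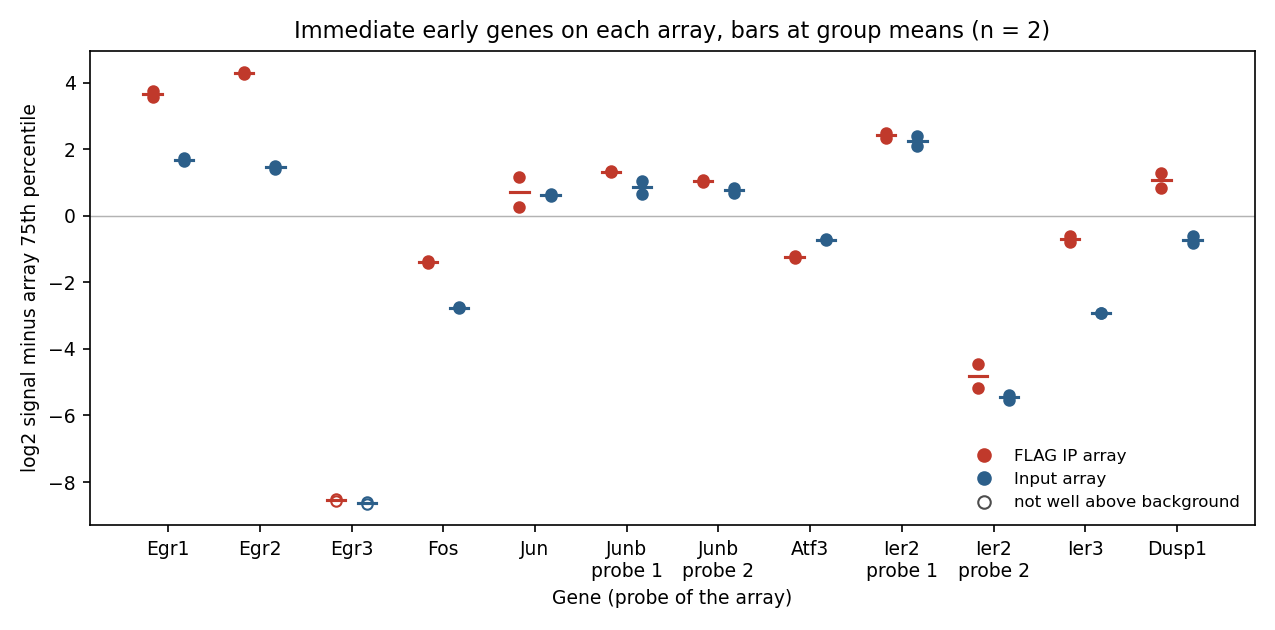
Level of each probe of the 10 genes on each array (vertical axis, log2 signal minus the array's 75th percentile), with FLAG IP arrays left of Input arrays, 1 point per array, bars at group means and open points for signals not well above background. The FLAG IP points of Egr1, Egr2, Fos, Ier3 and Dusp1 lie above both Input points, those of Atf3 lie below, and those of Jun lie on both sides of the Input points.

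The EGR genes encode zinc finger transcription factors that bind GC-rich sites. Egr2 was at 4.26 and 4.31 in FLAG IP, against 1.39 and 1.504 in Input. The groups were far apart and the arrays within each were close: the change was 2.84 ± 0.14 (95% interval 2.47 to 3.20, limma adjusted p = 0.00429), or 7.15-fold. Its probe was printed as 10 spots on each array, and the spots of 1 array had an SD of 0.059 to 0.072 in FLAG IP and of 0.051 to 0.059 in Input. Egr2 ranked 152nd from the top of the 27833 tested probes. Egr1, whose transcription is often read as a sign of ERK signalling, was at 3.58 and 3.76 in FLAG IP, against 1.74 and 1.63 in Input. The groups did not overlap, and the change was 1.98 ± 0.15 (limma adjusted p = 0.00457), or 3.95-fold. Egr3 had signals of 2.81 and 3.33 in FLAG IP and of 3.77 and 4.16 in Input, not well above background on any array, so no fold is given for it.

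The patterns most like that of Egr2 over the 4 arrays, by Euclidean distance after each probe's mean was taken off, were those of Arl5b (distance 0.063), Zfp248 (0.116) and Hus1b (0.117). Their changes, which this choice by distance holds near that of Egr2, were 2.83, 2.79 and 2.84.

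AP-1 is a dimer of FOS and JUN family proteins, and ATF3 can pair with JUN proteins or act as a repressor on its own. Fos was at -1.37 and -1.41 in FLAG IP, against -2.78 and -2.74 in Input. Both FLAG IP arrays were higher than both Input arrays, with a change of 1.37 ± 0.13 (95% interval 1.02 to 1.72, limma adjusted p = 0.00632), or 2.58-fold. Jun was at 0.27 and 1.18 in FLAG IP, against 0.58 and 0.65 in Input, so one FLAG IP array lay below both Input arrays and the other above them. Its change was 0.11 ± 0.32 (95% interval -0.73 to 0.96, limma adjusted p = 0.80), which leaves room for a change of either sign. The gap between the FLAG IP arrays was 0.91 for Jun, and only 5.80% of tested probes had a larger one. This gap lay between arrays and not between spots: after 1 outlier spot was left out on FLAG IP 1 and 1 on Input 2, the Jun spots had an SD of 0.042 and 0.033 on the FLAG IP arrays, and of 0.060 and 0.047 on the Input arrays. The change of Jun was 0.56 without FLAG IP replicate 1 and -0.34 without FLAG IP replicate 2.

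**Figure D2:**
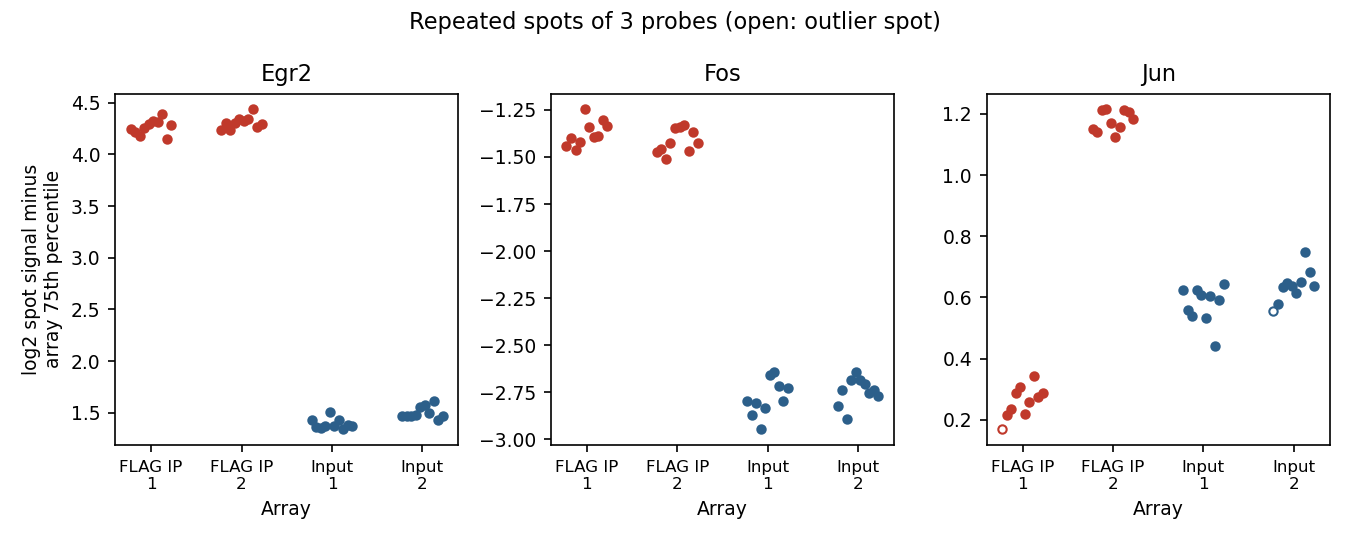
Each spot of the Egr2, Fos and Jun probes on each array (vertical axis, log2 spot signal minus the array's 75th percentile, with its own range in each panel; open points are spots left out as outliers). The Egr2 and Fos spots of both FLAG IP arrays lie above all Input spots, whereas the Jun spots of FLAG IP 1 lie below the Input spots and those of FLAG IP 2 above them.

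Junb, a JUN family member that can oppose JUN in growth control, had 2 probes. The first was at 1.31 and 1.34 in FLAG IP, against 0.66 and 1.05 in Input, with a change of 0.47 ± 0.18 (95% interval -0.01 to 0.95, limma adjusted p = 0.109). The second was at 1.01 and 1.07 in FLAG IP, against 0.85 and 0.67 in Input, with a change of 0.28 ± 0.15 (95% interval -0.10 to 0.66, limma adjusted p = 0.195). The arrays of the groups did not overlap for either probe, but neither change passed the test.

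Atf3 was at -1.21 and -1.27 in FLAG IP, against -0.71 and -0.72 in Input. It was the only one of the 9 tested genes lower on both FLAG IP arrays than on both Input arrays, with a change of -0.52 ± 0.13 (95% interval -0.87 to -0.17, limma adjusted p = 0.0414), or 1.43-fold lower. The call was narrow: the adjusted p was 0.0571 and 0.0697 without FLAG IP replicate 1 or 2, and 0.250 and 0.232 without Input replicate 1 or 2, with changes of -0.55 to -0.49. With the replicate numbers of the titles as a block, it was 0.150.

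IER3 is a short-lived protein linked to ERK signalling and cell survival. Ier3 was at -0.62 and -0.79 in FLAG IP, against -2.92 and -2.93 in Input. It had the second largest change of the 10 genes, 2.22 ± 0.14 (95% interval 1.84 to 2.59, limma adjusted p = 0.00431), or 4.65-fold. Ier2, which encodes a nuclear protein induced by growth factors, shares a name with Ier3 but is not its paralog. Its first probe was at 2.34 and 2.48 in FLAG IP, against 2.38 and 2.11 in Input, so the groups overlapped, and the change was 0.17 ± 0.17 (95% interval -0.27 to 0.60, limma adjusted p = 0.469). Its second probe was at -5.18 and -4.44 in FLAG IP, against -5.37 and -5.53 in Input, a change of 0.64 ± 0.28 (95% interval -0.08 to 1.36, limma adjusted p = 0.133). The signals of that probe were low, at 28.2 and 58.2 in FLAG IP, against 35.6 and 36.3 in Input. Its change was 1.01 without FLAG IP replicate 1. With a crossed replicate block, a setting added after seeing the data, that probe was called higher.

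DUSP1 is a nuclear phosphatase that switches off p38, JNK and ERK. Dusp1 was at 1.28 and 0.84 in FLAG IP, against -0.83 and -0.61 in Input. Both FLAG IP arrays were above both Input arrays, although they differed from each other by 0.44. The change was 1.78 ± 0.21 (95% interval 1.24 to 2.32, limma adjusted p = 0.00798), or 3.44-fold.

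**Figure D3:**
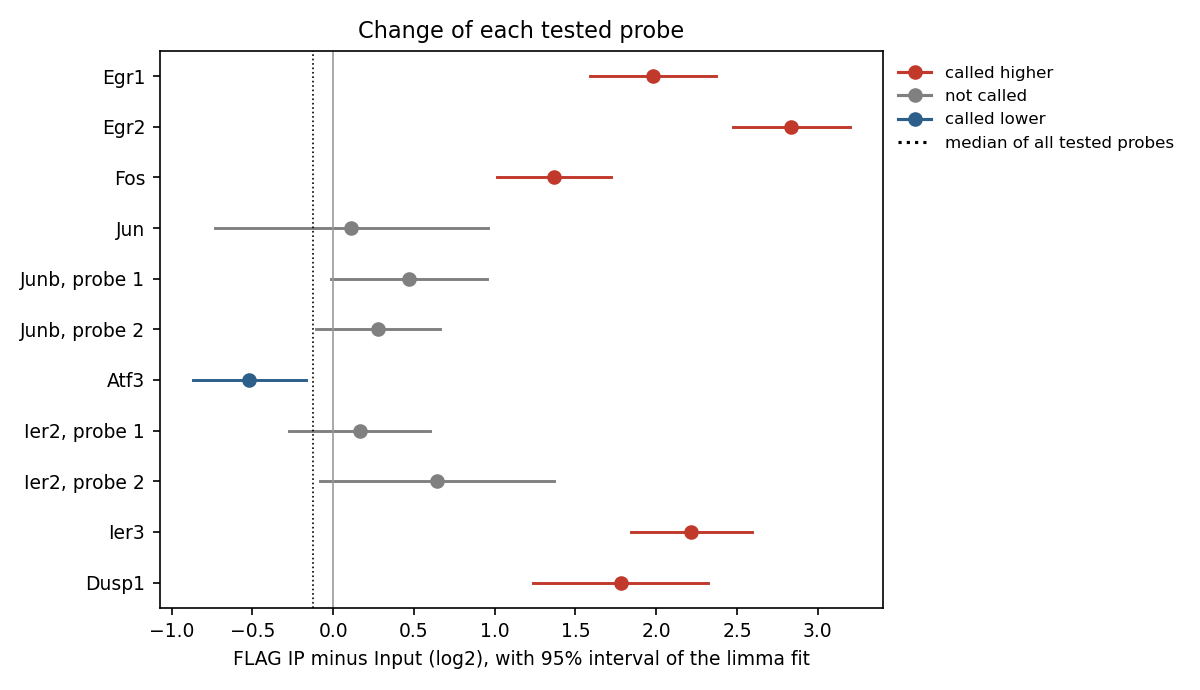
FLAG IP minus Input (horizontal axis, log2) for the 11 tested probes, with 95% intervals of the limma fit. The dotted line is the median of all tested probes, and the interval of Atf3 lies below it. The intervals of Egr1, Egr2, Fos, Ier3 and Dusp1 lie above it. Those of the Junb probes and the second Ier2 probe, which were not called, also lie above it.

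The promoters were examined for the sites that define immediate early control, because 5 of these genes were called in the same direction. The comparison itself measures recovered RNA and not transcription. A RefSeq promoter window (assembly GRCm38.p6, 250 bases before the start, both strands) was used for 7 of the genes, and not for Egr1, Egr3 and Ier2, which were not examined. Stretches of 30 bases around chosen sites are given with the site in capitals. A CArG box, the 10-base site bound by SRF, was found in Egr2 alone of the 7 examined, in the windows of different start sites. It was in 1.47% of all windows. The shares given here count single windows, whereas a gene counts as holding a site if any of its windows does. Genes and shares are therefore unlike measures. Sequence further upstream than 250 bases was not searched, so a gene without a site here may hold one there. The full CRE, TGACGTCA, bound by CREB, was found in Dusp1 alone and in 1.55% of windows. The shorter TGACG, which also lies inside the full CRE of Dusp1, was found in Egr2, Dusp1, Fos, Junb and Atf3 and in 17.8% of windows. The AP-1 letters TGACTCA or TGAGTCA (4.46% of windows) and the EGR letters GCGTGGGCG or GCGGGGGCG (3.06%) were in 0 of the 7. Genes called higher, not called and called lower all appear among those holding TGACG. The stretches read, 5′ to 3′ on the strand of the gene:
Egr2, CArG box, chr10:67537484-67537513, plus strand: cggatcttctCCTTTTTTGGaaagtctcgg
Egr2, CArG box, chr10:67537787-67537816, plus strand: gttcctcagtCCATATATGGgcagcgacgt
Dusp1, full CRE, chr17:26508597-26508626, minus strand: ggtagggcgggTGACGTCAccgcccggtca
Fos, TGACG, chr12:85473811-85473840, plus strand: cagttccgcccagTGACGtaggaagtccat
Junb, TGACG, chr8:84978838-84978867, minus strand: cgcttcctgacagTGACGcgagccgcctcc
Atf3, TGACG on the opposite strand, chr1:191183334-191183363, minus strand: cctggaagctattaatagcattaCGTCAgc

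Scaling to the spike-in control spots moved the median change of all probes by -0.93. On that scale Egr2 (1.90), Ier3 (1.29) and Egr1 (1.05) were still called higher, Dusp1 (0.85, limma adjusted p = 0.0560) and Fos (0.43, adjusted p = 0.335) were not, and Jun (-0.82), Junb (-0.66 and -0.46) and Ier2 (-0.77 and -0.29) changed sign without being called. In this fit limma pooled the error over all probes (median degrees of freedom 55666, against 4.75 with the 75th percentile). Its p-values and counts of calls therefore do not measure the spread of each gene. Relative to the shifted median, each change was as given above. The share of called probes that were higher was 43.7% with the 75th percentile and 4.39% with the spike-ins (774 higher and 16874 lower with the spike-ins, 4328 and 5569 with the percentile). The order of the 9 genes does not depend on this choice, but a change near 0 has no settled sign.

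**Figure D4:**
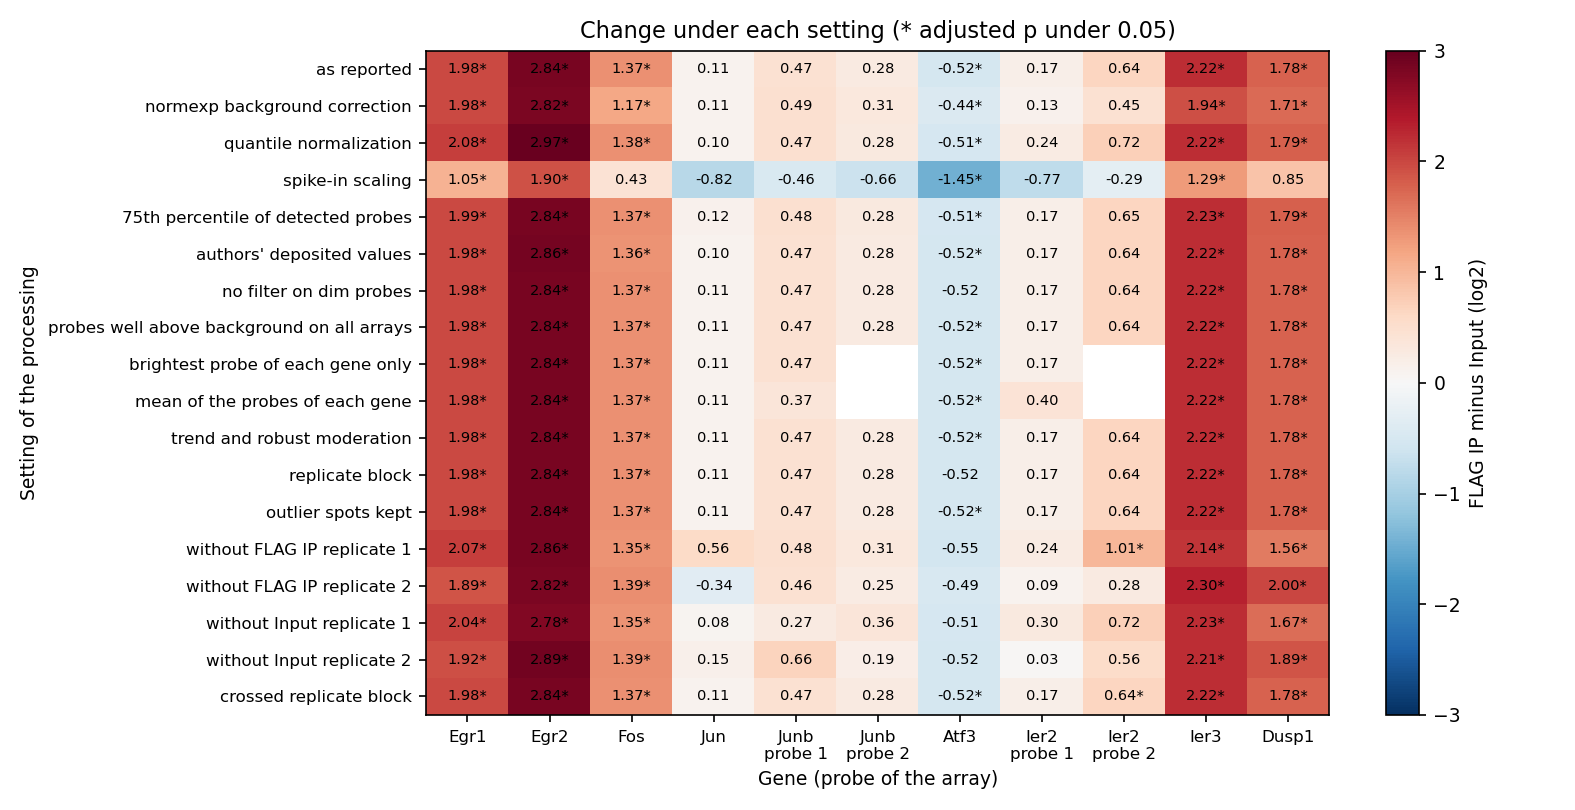
Change of each tested probe (columns) under each processing setting (rows), in log2 of FLAG IP over Input, with an asterisk at an adjusted p under 0.05 and blanks where a setting keeps 1 probe per gene. Egr1, Egr2 and Ier3 were called higher in every setting shown, Fos and Dusp1 in all but spike-in scaling, and Jun, Junb and Ier2 change sign with spike-in scaling, Jun also without FLAG IP replicate 2.

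Among 50 further immediate early genes, 49 had a probe and 43 were tested. Of these, 15 were called higher and 4 lower (all tested genes: 16.0% higher, 18.6% lower), with a median change of 0.28, but with spike-in scaling the counts were 4 and 16. The count called higher was 4 without Input replicate 1 and 5 without Input replicate 2. Zfp36, which encodes tristetraprolin, a protein that binds AU-rich elements and destabilises mRNAs, was at 0.94 and 0.40 in FLAG IP, against -1.57 and -1.46 in Input, a change of 2.19 ± 0.22 (limma adjusted p = 0.00662). Its second probe changed by 2.15. Dusp2, which encodes a nuclear MAP kinase phosphatase, rose by 2.03 ± 0.15 (adjusted p = 0.00441), and Dusp6, which encodes a cytoplasmic ERK phosphatase, by 1.43 ± 0.23 (adjusted p = 0.0143). Also higher were Tiparp, an ADP-ribosyltransferase gene (2.03 ± 0.15), Hbegf, which encodes an EGF receptor ligand (1.89 ± 0.16), Phlda1 (1.68 ± 0.21), the zinc finger gene Klf10 (1.46 ± 0.17) and Csrnp1 (1.44 ± 0.25). The calls of Phlda1, Csrnp1 and Dusp6 were lost without either Input replicate, and that of Klf10 without Input replicate 1 (adjusted p = 0.0503 to 0.0836). With spike-in scaling, the calls of Phlda1 (0.75), Klf10 (0.53), Csrnp1 (0.51) and Dusp6 (0.50) were also lost. The 4 genes called lower, named after their values were seen, were Ccn1 (-1.24), the growth regulator Myc (-1.02), Cebpd (-0.74) and Rgs2 (-0.59). Without either Input replicate, limma called 0 genes of this list lower, with 2 and 3 at an unadjusted p under 0.05.

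Other AP-1 and EGR genes of that list, also named after their values were seen, were not called: Fosb (0.44), Fosl1 (0.35), Fosl2 (-0.27, and 0.93 for its second probe), Jund (-0.02) and Egr4 (0.11). Within the FOS, JUN and EGR families, Fos, Egr1 and Egr2 were thus the genes that passed the test. Nr4a3, Rgs1, Ptgs2, Areg and Ereg were not well above background on any array.

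Of 37 tested genes that act upstream (SRF and its partners, CREB and the MAP kinase cascade), 10 were called higher and 2 lower, with a median change of 0.0047 (all tested genes: 16.0% higher, 18.6% lower). Rps6ka5, which encodes MSK1, a kinase that phosphorylates CREB and histone H3 at immediate early genes, rose by 2.54 ± 0.14 (limma adjusted p = 0.00429). Mrtfa, an SRF coactivator gene, rose by 1.91 ± 0.16, Atf1, a CREB relative, by 1.59 ± 0.17, and Rps6ka1, which encodes the ERK-activated kinase RSK1, by 1.27 ± 0.17 (not called without Input replicate 2, adjusted p = 0.0671). The 2 other probes of Atf1 changed by 0.84 and 1.36, with limma adjusted p between 0.0143 and 0.0616, so 1 was not called. Atf1 (0.66) and Rps6ka1 (0.34) were not called with spike-in scaling. Of 17 tested partners and repressors of EGR and AP-1 proteins, 2 were called higher and 2 lower, near or under the shares over all genes. Atf2, which encodes a dimer partner of JUN, rose by 2.12 ± 0.23, and its 3 other probes changed by 2.13 to 2.16. Batf3 changed by 0.67, Atf4 by -0.65 and Mapk8ip1, a JNK scaffold gene, by -0.65, and each of these calls was lost without either Input replicate (limma adjusted p = 0.134 to 0.235). Those of Atf4 and Mapk8ip1 were also lost without FLAG IP replicate 2 (adjusted p = 0.0670 and 0.0706).

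Of 17 tested genes for proteins that bind AU-rich and related elements, 4 were called higher and 2 lower, with a median change of 0.035 (all tested genes: 16.0% higher, 18.6% lower). Zfp36 shares its direction with its paralogs Zfp36l1 (1.46 ± 0.13, limma adjusted p = 0.00575) and Zfp36l2 (1.20 ± 0.22, adjusted p = 0.0194). Neither Zfp36l1 (0.53) nor Zfp36l2 (0.27) was called with spike-in scaling. Tia1 had 1 probe at -1.05 ± 0.18, and its other probes lay between -0.78 and 0.21. Without either Input replicate, Zfp36l2 and Tia1 were not called (adjusted p = 0.0771 to 0.103). Of 19 tested heat shock and stress genes, 3 were called higher (Hsph1 by 0.88, Hspd1 by 0.61, Xbp1 by 0.61) and 2 lower (Hspb1 by -1.02, Hspb8 by -0.91), with a median change of -0.19. These counts are near or under the shares over all genes and are no result about the list. The second probe of Hspd1 changed by 0.24 and was not called. Hsph1, Hspd1 and Xbp1 were not called and had negative changes with spike-in scaling. All 5 of these calls were lost without either Input replicate (limma adjusted p = 0.0862 to 0.279). Those of Hspb8, Hspd1 and Xbp1 were also lost without FLAG IP replicate 1, and those of Hsph1 and Xbp1 without FLAG IP replicate 2 (adjusted p = 0.0504 to 0.0814).

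**Figure D5:**
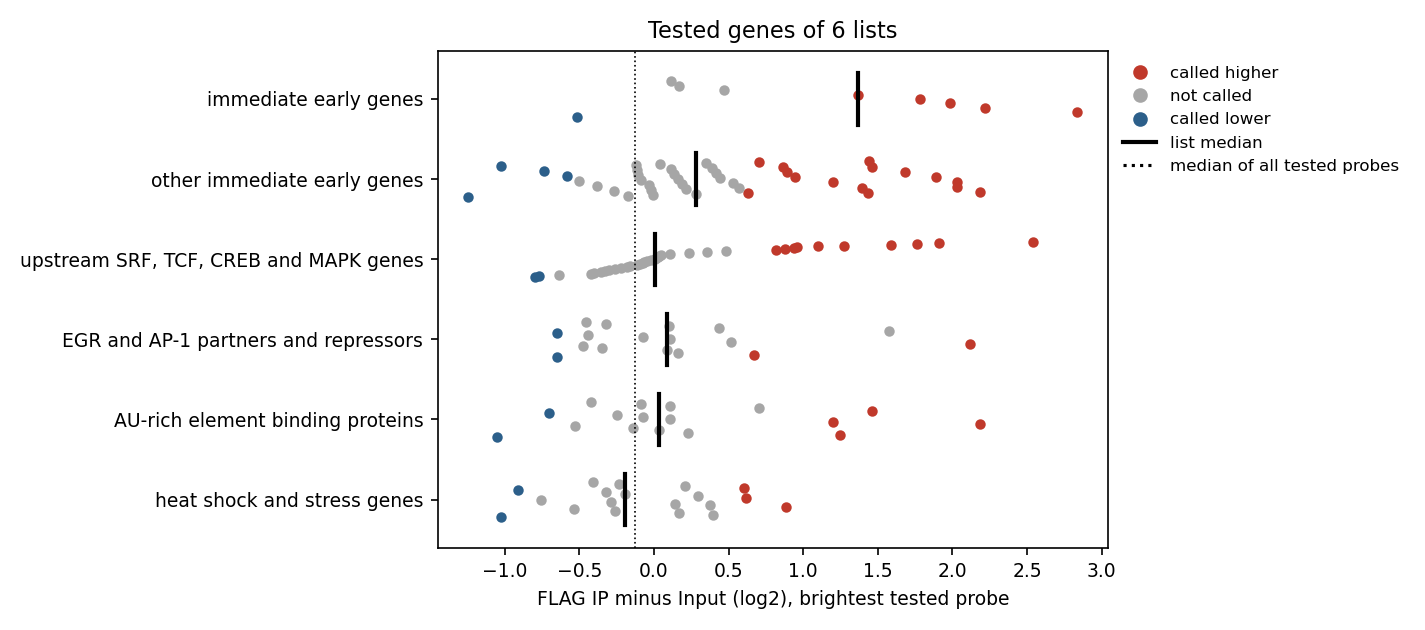
Change of every tested gene (horizontal axis, log2 of FLAG IP over Input, brightest tested probe) in 6 lists, coloured by its call, with the list median as a bar and the median of all tested probes as a dotted line. The 9 tested immediate early genes have a median of 1.37 and the other lists shown medians between -0.19 and 0.28. Markers of undifferentiated spermatogonia, not shown here, had a median change of 1.17. Spike-in scaling lowers all changes by 0.93.

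Markers of several testis cell types, though not of all, moved with this comparison; over all tested genes, 16.0% were called higher and 18.6% lower. Of 20 tested markers of undifferentiated spermatogonia, 12 were called higher and 1 lower. Their median change was 1.17, near the 1.37 of the immediate early genes. The summed linear level of the list was 57.1 and 47.4 in FLAG IP, against 18.9 and 22.5 in Input. Foxo1 (2.36, called higher) and Egr4 (0.11, not called) made up most of each of these sums. Of 12 tested general germ cell markers, 2 were called higher and 0 lower, with sums of 135 and 178 in FLAG IP, against 125 and 121 in Input. Sertoli markers were called lower in 9 of 17 and higher in 0 (sums of 224 and 216 in FLAG IP, against 342 and 318 in Input). Leydig markers were lower in 5 of 9 (14.6 and 18.5 in FLAG IP, against 40.0 and 30.4 in Input), peritubular myoid markers in 6 of 9 (80.9 and 82.5 in FLAG IP, against 137 and 124 in Input) and macrophage markers in 6 of 10 (10.2 and 10.2 in FLAG IP, against 15.6 and 16.3 in Input). Endothelial markers were mostly not called: 1 of 10 was called higher (Flt1, 1.29), 1 lower and 8 were not called. Their median change was -0.56, with 2 of the 10 changes above 0. The sums overlapped (4.17 and 3.06 in FLAG IP, against 3.53 and 4.67 in Input). Red blood cell genes were called lower in 2 of 4 and higher in 0 (sums of 23.0 and 28.9 in FLAG IP, against 68.0 and 44.2 in Input). No marker of these lists with a probe was dim on all 4 arrays, so markers of each of these cell types were detected. The 10 immediate early genes themselves summed to 43.8 and 46.9 in FLAG IP, against 15.7 and 15.4 in Input, and Egr1 and Egr2 made up most of the FLAG IP sums. A lower marker in FLAG IP is a lower share of the recovered RNA. It is no measure of the number of cells of that type, because Input is the starting material. The part of these markers in the result was not tested.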

How the data were processed

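Per the file headers, arrays were scanned and spot intensities extracted with Agilent Feature Extraction, the submitters' processing notes giving version 9.5. The deposited scanner files give intensity values (a background-subtracted processed signal) with flags for each spot. The authors' deposited table holds log2 values, and each column was within 0.01 of log2 processed signal less a constant for 99.6% of probes. The immunoprecipitation is not described in the labels' protocols, which cover RNA extraction and labelling.

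Here log2 of the processed signal less the array's 75th percentile was used. Outlier spots (62 to 90 of 43379 per array) were left out, 0 were saturated, and the spots of a probe were averaged. Probes with a share of at least 0.5 of spots well above background on both arrays of a group were tested. Accessions matched to RefSeq (GRCm38.p6) named 22951 of 41174 probes. Groups came from the titles. The comparison used lmFit and eBayes of limma 3.58.1 (R 4.3.3, two-sided), and p-values were adjusted by Benjamini-Hochberg over 27833 probes. A gene takes the call of its brightest tested probe. Summed levels add linear levels over the genes of a list. The fit was tested on simulated data.

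In all, 17 other settings were tried. For normexp, raw median signals were used and 17 values were imputed. All genes of interest were named, and from each further list the called genes of largest change (up to 8 of the other immediate early genes, up to 5 elsewhere). A few genes taken by this rule are left out of the text. The members and lists were chosen with earlier results of these data known. The replicate numbers share only a label: deviations of same-numbered arrays correlated at -0.37 over 2 pairs.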

Additional observations from a re-analysis of the deposited data

How the results depend on the processing

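Egr1 (1.05 to 2.08), Egr2 (1.90 to 2.97) and Ier3 (1.29 to 2.30) were called higher in all 17 other settings, Fos (0.43 to 1.39) and Dusp1 (0.85 to 2.002) in 16, and Atf3 (-1.45 to -0.44) was called lower in 11. With spike-in scaling, where limma pooled the error over all probes, the genes of interest called higher numbered 3. The other immediate early genes then numbered 4 higher and 16 lower, and all probes 774 higher and 16874 lower. Spike-in scaling reversed Ier2 (-0.77 and -0.29), Jun (-0.82), Junb (-0.66 and -0.46), Batf3 (-0.26), Hsph1 (-0.052), Hspd1 (-0.32) and Xbp1 (-0.33). Without FLAG IP replicate 2, Jun reversed to -0.34, against 0.56 without FLAG IP replicate 1. Without a filter on dim probes, 0 genes of interest were called lower by limma (1 at an unadjusted p under 0.05), and all probes called lower numbered 3601. With the replicate block, 0 genes of interest were called lower (0 at an unadjusted p under 0.05), 2 other immediate early genes were lower, and all probes numbered 2874 higher and 2701 lower. Leaving out each array in turn gave 0 to 0 genes of interest called lower (0 or 1 unadjusted), 4 to 17 other immediate early genes higher and 0 to 4 lower (2 to 5 unadjusted), and 1166 to 4866 probes higher and 643 to 5705 lower. The lowest counts of calls came without Input replicate 1 (1166 and 783) or Input replicate 2 (1272 and 643), where the lone Input array is assumed to vary like the FLAG IP arrays. Because the deviations of same-numbered arrays correlated at -0.37, a crossed replicate block was added after seeing the data: it called 5 genes of interest higher and 1 lower, and 5559 probes higher and 7890 lower. The slide as a block was not run, because all 4 arrays lie on 1 slide.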
